A study of Mus musculus with 2 samples.

Results

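The 10 genes described here encode proteins stored in the granules of neutrophils and were chosen by name, by the granule stage to which each protein belongs, out of 49315 genes in the count table. The azurophil stage holds 4 of them (Mpo, Elane, Prtn3 and Ctsg), the specific stage 4 (Ltf, Camp, Ngp and Lcn2), and the step from specific to gelatinase granules 2 (Mmp8 and Mmp9). Expression was measured by RNA sequencing in cells labelled as macrophages of mouse dorsal root ganglia, which house the cell bodies of sensory neurons next to the spinal cord, with 1 library from mice under chronic intermittent hypoxia (CIH) and 1 from mice under normoxia. In CIH, oxygen cycled between 8% and 21% every 6 min, for 8 h a day over 14 days, whereas the normoxia mice had the same chambers and valve action with oxygen kept at 21%. In both groups the experiments followed about 18 h after exposure had ended. No strain, genotype, age or number of mice per library is given in the sources used here, nor how the macrophages were isolated. The column with the number 19 in its code was taken as CIH by its initial alone, so every direction below rests on that reading.

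Neutrophil granules form one after another as the cell matures in the bone marrow. Azurophil granules, with myeloperoxidase and the serine proteases, are filled at the promyelocyte step, specific granules, with lactoferrin and cathelicidin, at the myelocyte and metamyelocyte steps, and gelatinase granules, with the matrix metalloproteinases, at the band cell step. A protein goes to the granule that is being built while its mRNA is made, so the mRNAs mark the step of maturation, and circulating neutrophils hold much less of the early ones. Transcription factors of the ETS family such as PU.1 act with Myb and C/EBP factors on the azurophil genes, and C/EBP epsilon is needed for specific granule genes in mice.

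The CIH library held 145056 counts and the normoxia library 2171348, a 15.0-fold difference in depth. Genes with any count numbered 2050 in CIH and 4640 in normoxia, of which 1158 were shared. The files gave no molecular identifiers, so the number of reads per starting molecule was estimated as the median count of genes seen in a single library, which was 39 in CIH and 229 in normoxia, or about 3719 and 9482 molecules in all. Each group had a single library, so differences have no replicate check and no test across conditions was possible, and all intervals are exact 95% intervals that cover counting error only. Of 14 macrophage markers, 2 were counted in CIH (Apoe and Ctss) and 12 in normoxia, and the list took 0.287% of counts in CIH and 1.26% in normoxia. The defining markers Adgre1, Cd68, C1qa, C1qb and C1qc were all at 0 in CIH, against 1764, 1565, 1092, 610 and 1253 counts in normoxia. Of all 4215 genes with at least 50 counts over both libraries, 68.4% were also at 0 in CIH. On estimated molecules, Apoe alone of the 12 macrophage markers with at least 50 counts was lower in CIH. Taken singly, the 0 counts of the other markers thus do not show a lower level on molecules. Summed over the list, the ratio of CIH over normoxia was 0.229, with an interval on molecules of 0.110 to 0.427 that lies below 1. Apoe held 249 of the list's 417 counts in CIH and 12776 of 27296 in normoxia.

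In GENCODE M21 on GRCm38, 4 of the 10 genes lie on chromosome 9, namely Mmp8 (ENSMUSG00000005800) at 7558456 to 7568485, Camp (ENSMUSG00000038357) at 109847379 to 109849617, Ngp (ENSMUSG00000032484) at 110419747 to 110423012 and Ltf (ENSMUSG00000032496) at 111019271 to 111042767. Prtn3 and Elane are neighbours on chromosome 10, with Prtn3 (ENSMUSG00000057729) at 79874476 to 79883174 and Elane (ENSMUSG00000020125) at 79886247 to 79888215. Chromosome 2 holds Lcn2 (ENSMUSG00000026822) at 32384633 to 32388252 and Mmp9 (ENSMUSG00000017737) at 164940780 to 164955850, chromosome 11 holds Mpo (ENSMUSG00000009350) at 87793581 to 87804413, and chromosome 14 holds Ctsg (ENSMUSG00000040314) at 56099881 to 56102574. Camp, Lcn2 and Ctsg lie on the minus strand and the other 7 on the plus strand. The authors' own build is not stated, so these positions describe the genes and not the alignment.

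The promoters of the 4 specific granule genes, which carry most of the counts below, and of Mpo and Elane, the azurophil genes that differ in which library held them, are printed 5′ to 3′ on the gene's own strand. They come from RefSeq on GRCm38.p6 and run from 250 bases before the start annotated there to 50 after it. That start can differ from the GENCODE gene limits given above, and the windows of Lcn2 and Prtn3 lie wholly inside the GENCODE genes. Motif positions below count from the RefSeq start. Capitals mark AGGAAGT, a core sequence bound by PU.1 and other ETS factors, and TTGCNNAA, a form of the C/EBP sequence, each searched on both strands.
Ltf (chr9:111019042-111019341, plus strand): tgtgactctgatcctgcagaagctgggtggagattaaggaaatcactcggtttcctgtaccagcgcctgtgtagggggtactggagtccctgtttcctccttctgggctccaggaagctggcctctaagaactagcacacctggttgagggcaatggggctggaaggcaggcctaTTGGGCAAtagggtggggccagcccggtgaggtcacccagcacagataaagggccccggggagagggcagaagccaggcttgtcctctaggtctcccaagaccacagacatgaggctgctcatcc
Camp (chr9:109849407-109849706, minus strand): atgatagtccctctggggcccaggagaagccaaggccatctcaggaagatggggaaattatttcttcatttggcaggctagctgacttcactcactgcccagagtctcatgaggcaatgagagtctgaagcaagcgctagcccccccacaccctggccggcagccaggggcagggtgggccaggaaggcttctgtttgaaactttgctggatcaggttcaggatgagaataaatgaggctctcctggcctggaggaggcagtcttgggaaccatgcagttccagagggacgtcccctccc
Ngp (chr9:110419558-110419857, plus strand): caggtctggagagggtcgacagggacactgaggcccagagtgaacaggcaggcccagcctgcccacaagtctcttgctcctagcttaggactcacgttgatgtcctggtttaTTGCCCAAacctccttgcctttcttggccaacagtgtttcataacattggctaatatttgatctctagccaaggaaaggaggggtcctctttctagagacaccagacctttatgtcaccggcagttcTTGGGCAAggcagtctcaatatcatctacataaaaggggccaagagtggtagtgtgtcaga
Lcn2 (chr2:32387690-32387989, minus strand): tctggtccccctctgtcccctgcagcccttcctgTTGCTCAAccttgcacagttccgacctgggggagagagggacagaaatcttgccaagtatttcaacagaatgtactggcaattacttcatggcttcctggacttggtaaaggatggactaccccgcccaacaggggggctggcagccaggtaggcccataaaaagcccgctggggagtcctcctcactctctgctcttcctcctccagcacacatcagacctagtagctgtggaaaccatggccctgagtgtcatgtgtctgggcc
Mpo (chr11:87793534-87793833, plus strand): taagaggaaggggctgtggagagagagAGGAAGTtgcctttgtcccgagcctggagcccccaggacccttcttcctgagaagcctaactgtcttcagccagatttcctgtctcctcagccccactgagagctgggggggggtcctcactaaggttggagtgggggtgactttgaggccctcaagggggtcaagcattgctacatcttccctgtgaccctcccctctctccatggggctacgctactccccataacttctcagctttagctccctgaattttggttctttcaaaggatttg
Elane (chr10:79886062-79886361, plus strand): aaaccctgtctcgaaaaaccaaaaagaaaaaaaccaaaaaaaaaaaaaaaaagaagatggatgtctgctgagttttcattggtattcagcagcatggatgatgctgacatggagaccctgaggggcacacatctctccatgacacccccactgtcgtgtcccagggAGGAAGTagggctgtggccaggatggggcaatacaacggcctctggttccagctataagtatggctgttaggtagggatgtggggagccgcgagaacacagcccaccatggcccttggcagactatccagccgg

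RefSeq promoters were matched for 9 of the 10 genes. AGGAAGT was present in all 4 azurophil promoters, at position −223 from the start in Mpo, −84 in Elane, −94 in Prtn3 and −206 in Ctsg, in none of the 4 specific granule promoters, and in that of Mmp8. It was found in 9.35% of all 32817 promoter windows of that length. TTGCNNAA was found in 3 of the 4 specific granule promoters and in that of Mmp8, in none of the azurophil promoters, and in 10.8% of all windows. It lies at −75 in Ltf, at −216 in Lcn2, and at both −138 and −11 in Ngp, and these letters were not in the Camp window. AACGG, the core bound by Myb, was found in the promoters of Elane and Prtn3, at −50 and −55, in none of the other 7 promoters, and in 17.4% of all windows. TATAAA, the letters of the TATA box, was found in those of Ctsg and Mmp8 and in 13.6% of all windows. Both matches lie on the strand opposite to the gene, at −237 in Ctsg and −3 in Mmp8. No match overlaps another in these windows. The motifs were chosen after the sequences were seen, and a match describes letters, not binding.

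Of the 10 genes, 6 were counted in CIH, 7 in normoxia and 4 in both, and 7 reached the minimum of 50 counts used below. Together they held 4.60% of all counts in CIH (4.49 to 4.70) and 0.776% in normoxia (0.765 to 0.788).

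The specific granule genes took a far larger share of the CIH library. Ltf, Camp, Ngp and Lcn2 summed to 6633 counts in CIH and 15515 in normoxia, or 4.57% of all counts (4.47 to 4.68) in CIH and 0.715% (0.703 to 0.726) in normoxia. The ratio of CIH over normoxia was 6.40 (6.22 to 6.59 on reads, and 4.80 to 8.61 when counts were first turned into estimated molecules). TMM scaling, a trimmed mean over genes counted in both libraries, lowers this ratio to 3.67 and every other ratio between the libraries by the same factor of 0.573. All 4 genes were higher in CIH by the size rule, which asks for a ratio of at least 2-fold and an interval apart from 1 among genes with at least 50 counts over both libraries. Over all 4215 genes that reached 50 counts, 16.1% were higher in CIH by this rule on reads. When the interval was taken on estimated molecules, all 4 still passed, as did 35 genes in all, or 0.830% of those assessed. With TMM on reads all 4 passed as well, where 11.9% of genes were higher and 75.7% lower. In bulk RNA, more cells of a type and more RNA per cell cannot be told apart.

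Ngp, which encodes neutrophilic granule protein, a cathelicidin- and cystatin-related protein, was the most abundant of the 10. It had 3060 counts in CIH and 6932 in normoxia, or 21095 CPM (a count scaled by its library's total; 20354 to 21856) in CIH and 3192 CPM (3118 to 3269) in normoxia. The ratio was 6.61 (6.33 to 6.90 on reads and 4.29 to 10.4 on molecules). By TPM, the authors' length-corrected level, Ngp ranked 6 among the genes of the CIH library and 17 in normoxia.

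Camp encodes the precursor of CRAMP, the only mouse cathelicidin, an antimicrobial peptide. It had 1441 counts in CIH and 2878 in normoxia, or 9934 CPM (9428 to 10461) in CIH and 1325 CPM (1277 to 1375) in normoxia. Its ratio was 7.49 (7.03 to 7.99 on reads and 3.86 to 15.5 on molecules). By TPM it ranked 8 in CIH and 26 in normoxia. Camp and Ngp were thus both among the most abundant mRNAs of the CIH library.

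Lcn2 encodes lipocalin 2, which binds bacterial iron carriers, and macrophages and epithelia can also make it when stimulated. It had 1393 counts in CIH and 2719 in normoxia, or 9603 CPM (9105 to 10121) in CIH and 1252 CPM (1206 to 1300.2) in normoxia. Its ratio, 7.67, was the highest of the 4 (7.18 to 8.18 on reads, and on molecules 3.89 to 16.3). The intervals of Lcn2 and Camp overlap on reads, and those of all 4 genes overlap on molecules.

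Ltf encodes lactoferrin, an iron-binding antibacterial protein. It had 739 counts in CIH and 2986 in normoxia, or 5095 CPM (4734 to 5476) in CIH and 1375 CPM (1326 to 1425) in normoxia. Its ratio of 3.70 (3.41 to 4.02 on reads) was the lowest of the 4 and lay apart from the other 3 on reads but not on molecules, where its interval was 1.74 to 8.16. With TMM the ratio was 2.12, with an interval on molecules of 0.995 to 4.67 that includes 1. Ltf then no longer passed, and the other 3 did, among 8 genes in all that were higher (0.190% of those assessed), while 1.30% were lower.

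**Figure D1:**
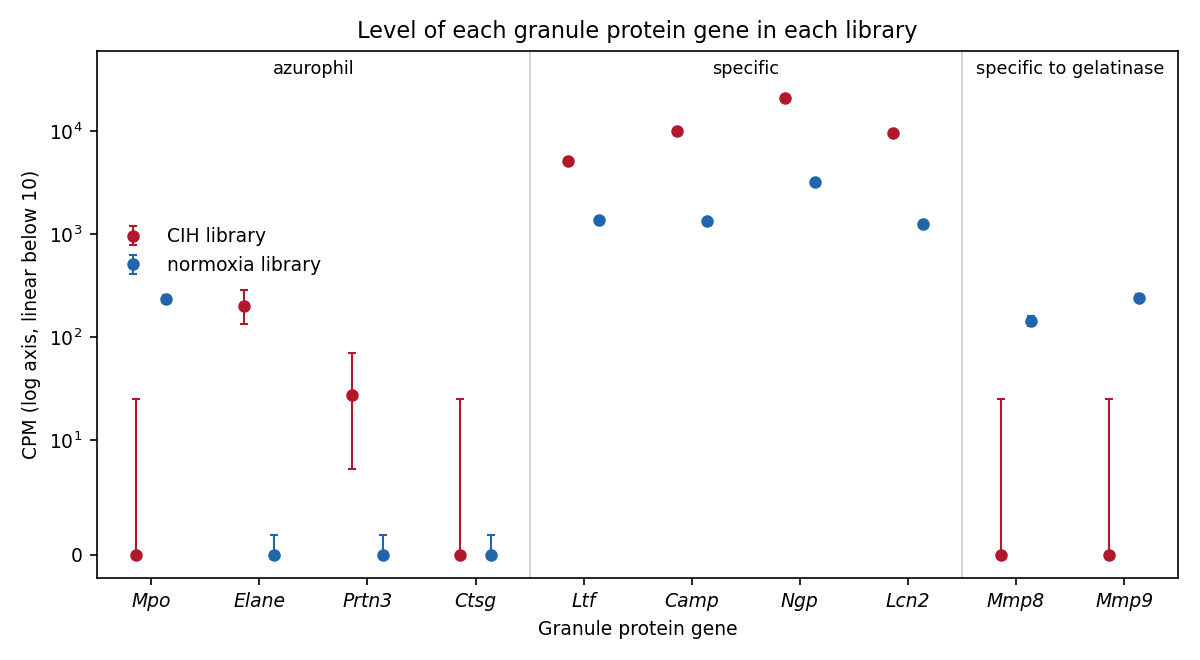
CPM of each of the 10 genes in the CIH library (red, left of each pair) and the normoxia library (blue, right), on an axis that is logarithmic above 10 and linear below. Points are 1 library each and bars are exact 95% Poisson intervals on reads; the 4 specific granule genes lie between 5095 and 21095 CPM in CIH and between 1252 and 3192 CPM in normoxia, while Mpo, Mmp8 and Mmp9 are at 0 in CIH and Elane and Prtn3 at 0 in normoxia.

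Within the specific stage, the make-up of the counts differed most in Ltf. Ngp held 46.1% of the stage's counts in CIH (44.9 to 47.3) and 44.7% in normoxia (43.9 to 45.5). Camp held 21.7% in CIH (20.7 to 22.7) and 18.5% in normoxia (17.9 to 19.2), and Lcn2 held 21.0% in CIH (20.0 to 22.0) and 17.5% in normoxia (16.9 to 18.1). Ltf held 11.1% in CIH (10.4 to 11.9) and 19.2% in normoxia (18.6 to 19.9). The shares do not depend on how the libraries are scaled. On reads the intervals of Camp, Lcn2 and Ltf lie apart between the libraries and those of Ngp overlap, whereas on estimated molecules the intervals of all 4 overlap, with Ltf at 6.84 to 16.9% in CIH and 10.7 to 30.6% in normoxia. The order of levels by TPM within each library was the same, with Ngp first, then Camp, Lcn2 and Ltf. The level of Ngp in TPM was 1.32 times that of Camp and 11.7 times that of Ltf in CIH, and 1.49 and 6.55 times in normoxia.

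**Figure D2:**
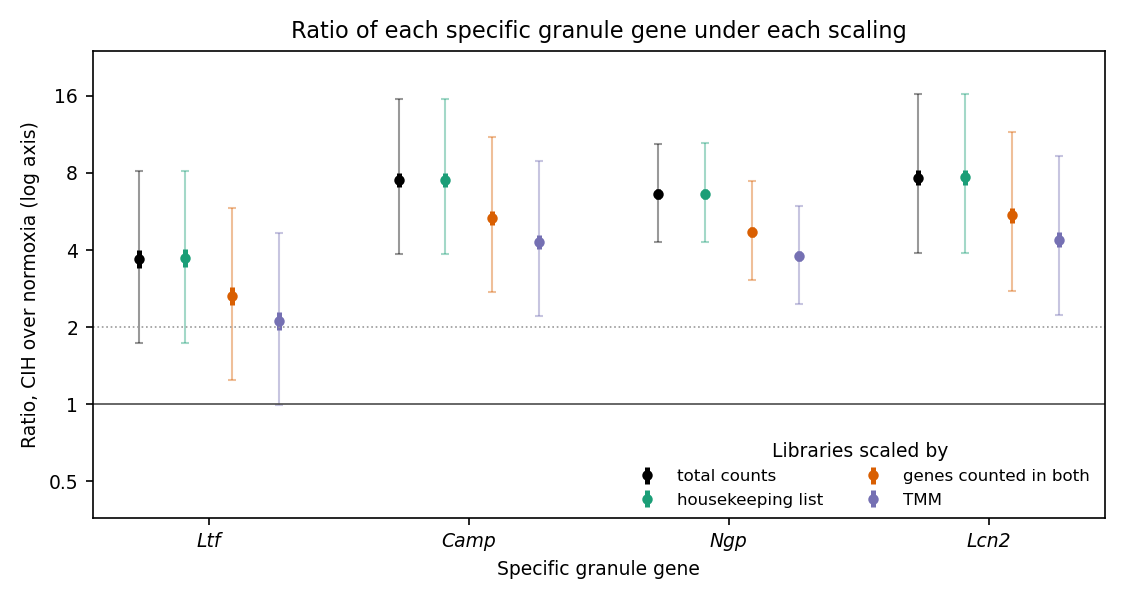
Ratio of CIH over normoxia of the 4 specific granule genes (log axis) with the libraries scaled in 4 ways. Thick bars are exact 95% intervals on reads and thin bars those on estimated molecules; the solid line marks 1 and the dotted line 2-fold, and all ratios lie above 2, from 2.12 for Ltf with TMM to 7.68 for Lcn2 with the housekeeping list.

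Genes of like abundance serve as background. The normoxia counts of the 4 genes ran from 2719 to 6932, a range that held 57 other genes, and the highest ratio among those was 2.19 (Rps9, a ribosomal protein gene). The median ratio over all 61 genes in the range was 0.645. Over the 1108 assessed genes that both libraries counted, the median log2 ratio was 0.70 and the upper quartile 1.80. The log2 ratios of Ltf (1.89), Ngp (2.72), Camp (2.91) and Lcn2 (2.94) were all above that quartile.

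**Figure D3:**
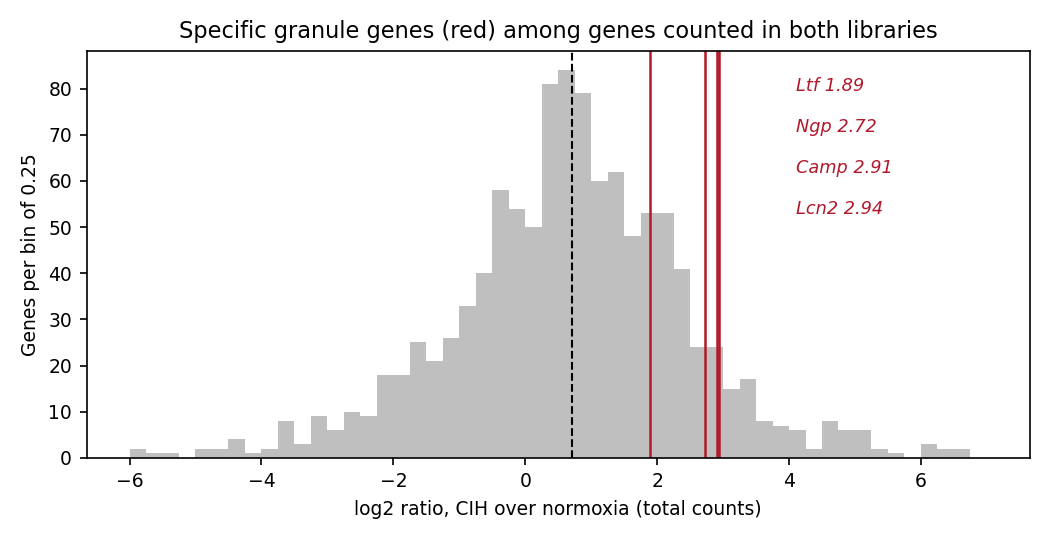
Histogram of the log2 ratio of CIH over normoxia, scaled by total counts, for the 1108 genes with at least 50 counts that were counted in both libraries. Genes with the most extreme ratios at either end, such as Cdc37 at −6.12 and AI662270 at 10.26, fall outside the bins and are not drawn. The dashed line is the median of all 1108 genes, 0.70, and the red lines are Ltf at 1.89, Ngp at 2.72, Camp at 2.91 and Lcn2 at 2.94.

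The azurophil genes were scarce in both libraries, and different members were counted in each. The stage summed to 33 counts in CIH and 506 in normoxia, which is 0.0227% of all counts (0.0157 to 0.0319) in CIH and 0.0233% (0.0213 to 0.0254) in normoxia. The ratio was 0.976 (0.665 to 1.39 on reads and 0.0098 to 18.3 on molecules), so no difference in the sum was detectable on total counts. The interval on reads lies below 1 with TMM, at a ratio of 0.559 (0.381 to 0.796), and when scaled by genes counted in both, at 0.696 (0.474 to 0.990).

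Mpo, which encodes myeloperoxidase, the haem enzyme that makes hypochlorous acid, supplied all azurophil counts in normoxia. It had 0 counts in CIH and 506 in normoxia, where it stood at 233 CPM (213 to 254). Taking the 0 as up to 3 counts, it was at least 11.3-fold lower in CIH on reads. Taken as up to 3 estimated molecules, which is 117 counts in CIH, the 0 sets no bound below 1, since the 506 counts of normoxia come to only 2.21 estimated molecules.

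Elane, which encodes neutrophil elastase, had 29 counts in CIH and 0 in normoxia, or 199.9 CPM (134 to 287) in CIH. Prtn3, which encodes proteinase 3, had 4 counts in CIH and 0 in normoxia, or 27.6 CPM (7.51 to 70.6) in CIH. Ctsg, which encodes cathepsin G, had 0 in both, and a count of 0 allows up to 20.7 CPM in CIH and 1.38 CPM in normoxia. These 3 genes stayed under 50 counts and were not assessed. The counts of Elane and Prtn3 come to 0.744 and 0.103 estimated molecules. Of 892 genes counted in CIH alone, 59.5% had at least as many counts as Elane. The proteases and Mpo, though stored in the same granule, were thus not counted together in either library.

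The genes of the step to gelatinase granules were counted in normoxia alone. Mmp8, neutrophil collagenase, had 0 counts in CIH and 312 in normoxia (144 CPM, 128 to 161). Mmp9, gelatinase B, had 0 counts in CIH and 522 in normoxia (240.4 CPM, 220.2 to 262). On reads they were at least 6.95-fold and 11.6-fold lower in CIH, and the pair at most 0.0538 times its normoxia share. Both, with Mpo, were lower by the size rule, as were 71.5% of all genes assessed. On estimated molecules none of the 3 passed, and 0.380% of the genes assessed were lower. Of 807 genes with normoxia counts between 312 and 522, the range these 3 genes span, 76.1% were at 0 in CIH.

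Set against each other within a library, the specific stage was far ahead in both libraries. The order of the azurophil stage and of Mmp8 with Mmp9 could not be told on estimated molecules, whose intervals overlap within each library. The specific stage held 99.5% of the 10 genes' counts in CIH (99.3 to 99.7) and 92.0% in normoxia (91.6 to 92.5). The azurophil stage held 0.495% in CIH (0.341 to 0.695) and 3.00% in normoxia (2.75 to 3.27). Mmp8 and Mmp9 held 0% in CIH, where a count of 0 allows up to 0.0450% of the 6666 counts, and 4.95% in normoxia (4.63 to 5.29). The intervals lie apart for all 3 stages on reads. On estimated molecules they overlap for the azurophil stage (0.00703 to 3.06% in CIH and 0.425 to 9.90% in normoxia) and for Mmp8 and Mmp9 (0 to 2.14% in CIH and 1.25 to 12.7% in normoxia), and they overlap by a narrow margin for the specific stage (96.9 to 99.99% in CIH and 83.4 to 97.1% in normoxia). Per length, the specific stage took 99.3% of the summed TPM of the 10 genes in CIH and 96.4% in normoxia. In normoxia the TPM of Ltf, the lowest specific gene, was 5.86 times that of Mpo, 5.87 times that of Mmp9 and 6.73 times that of Mmp8, and in CIH it was 6.80 times that of Elane.

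**Figure D4:**
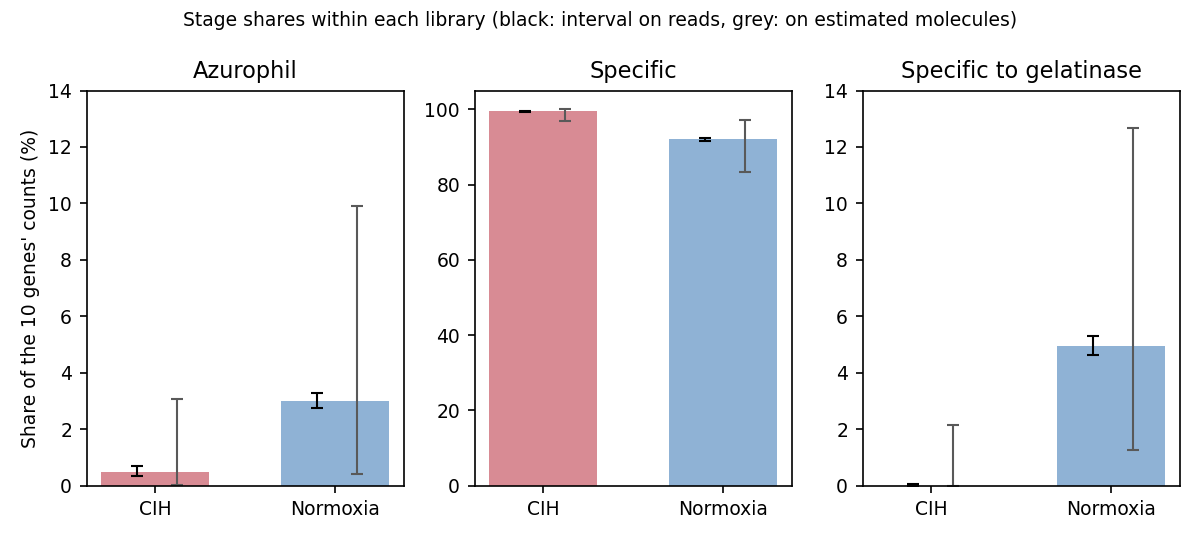
Share of the summed counts of the 10 genes (percent) held by each granule stage in the CIH library (left bar) and the normoxia library (right bar); the middle panel has its own axis. Black bars are exact 95% intervals on reads and grey bars those on estimated molecules; the specific stage holds 99.5% in CIH and 92.0% in normoxia.

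Other specific granule genes lay on both sides. Of 16 further specific granule genes, 8 were counted in CIH and 12 in normoxia, and of 12 assessed, 4 were higher, 5 lower and 3 neither on reads, beside 16.1% higher and 71.5% lower over all genes assessed. On estimated molecules Pglyrp1 alone of the 12 was higher and none was lower. The higher ones on reads were Pglyrp1, a peptidoglycan-binding antibacterial protein (219 counts in CIH and 554 in normoxia, a ratio of 5.92), Itgam, the integrin CD11b (40 and 117, 5.12), Slpi, an inhibitor of neutrophil elastase (72 and 265, 4.07), and Hp, haptoglobin (215 and 1236, 2.60). With TMM Hp, at 1.49, no longer passed. Cyba, a membrane subunit of the phagocyte oxidase, was lower (56 counts in CIH and 2611 in normoxia, 0.321), and Chil1, Mcemp1, Ceacam10 and Ltb4r1 were at 0 in CIH. Lyz2, the lysozyme gene that macrophages express as well, had 3164 counts in CIH and 34028 in normoxia, a ratio of 1.39 that turned to 0.797 with TMM. The median log2 ratio of the 12 was 0.37, or below 0 with TMM, beside −4.45 over all 4215 genes assessed. Of those, 68.4% were at 0 in CIH, and with each 0 taken as 3 counts their median was −1.94.

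Of 8 other azurophil cargo and processing genes, 2 were counted in CIH and 6 in normoxia, and of the 6 assessed, 1 was higher, 4 lower and 1 neither on reads, which is near the background of 16.1% higher and 71.5% lower. None of the 6 passed on estimated molecules. Ctsc, the protease that activates elastase, proteinase 3 and cathepsin G, had 0 counts in CIH and 1762 in normoxia, and Srgn, the proteoglycan on which they are packed, had 0 and 1341. Both are also made by macrophages. Ms4a3, a gene of granulocyte and monocyte precursors, had 0 counts in CIH and 129 in normoxia. The higher gene was Gusb, a lysosomal enzyme (55 and 384, 2.14), which did not pass with TMM at 1.23.

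Of 9 other gelatinase granule and secretory vesicle genes, 2 were counted in CIH and 4 in normoxia, and of 4 assessed, 2 were higher and 2 lower on reads, beside 16.1% and 71.5% over all genes. None of the 4 passed on estimated molecules. Fcnb, ficolin B, had 92 counts in CIH and 0 in normoxia, and Chil3, a chitinase-like protein, had 443 and 3223, a ratio of 2.06 that was 1.18 with TMM. The receptor gene Fpr2 had 0 counts in CIH and 470 in normoxia, and the metal transporter gene Slc11a1 had 0 and 157.

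Among regulators of granule formation, Cebpe, which encodes C/EBP epsilon, had 36 counts in CIH and 0 in normoxia, and Csf3r, the receptor for granulocyte colony-stimulating factor, had 40 and 0. Both were under the minimum of 50 counts and come to 0.923 and 1.03 estimated molecules in CIH. Spi1, which encodes PU.1, was lower on reads, with 32 counts in CIH and 1291 in normoxia, a ratio of 0.371 whose interval on molecules, 0.00404 to 3.57, includes 1. Also lower on reads were Gata1, Cebpd and Cebpa, with 0 counts in CIH and 544, 129 and 112 in normoxia. Gfi1, Runx1 and Myb were at 0 in both libraries. In all, 1 of 6 assessed regulators was higher on reads (Irf8), 4 were lower and 1 was neither, near the background of 16.1% higher and 71.5% lower, and none passed on estimated molecules.

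Of 12 genes for inhibitors of granule proteins, 4 were counted in CIH and 7 in normoxia, and of 6 assessed, 2 were higher (Slpi and Timp2), 3 lower and 1 neither on reads, beside 16.1% higher and 71.5% lower over all genes. None of the 6 passed on estimated molecules. With TMM Timp2, at 1.51, no longer passed. Serpinb1a, an inhibitor of the granule serine proteases inside neutrophils, had 59 counts in CIH and 528 in normoxia, a ratio of 1.67 that was 0.958 with TMM. Cst3, cystatin C, had 97 counts in CIH and 3252 in normoxia, a ratio of 0.446. Timp1, an inhibitor of Mmp8 and Mmp9, was at 0 in both. Of the receptors, Lrp1, which takes up lactoferrin and Mmp9, had 51 counts in CIH and 600 in normoxia, a ratio of 1.27 that was 0.729 with TMM. In all, 2 of 8 receptors were counted in CIH and 4 in normoxia, and of 3 assessed, none was higher, 2 were lower and 1 was neither on reads, and none passed on estimated molecules.

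Most assessed genes of mature neutrophils were higher in CIH on reads. Of 17, 10 were counted in CIH and 8 in normoxia, and of 9 assessed, 7 were higher, 1 lower and 1 neither, beside 16.1% higher and 71.5% lower over all genes. On estimated molecules 3 of the 9 were higher (S100a8, S100a9 and Retnlg) and none was lower. The list held 6.12% of counts in CIH and 1.23% in normoxia. The calprotectin genes S100a8 and S100a9 had ratios of 5.33 and 5.39, Retnlg, a resistin-like protein, had 404 counts in CIH and 1328 in normoxia (4.55), and Ly6g, a neutrophil surface marker, had 110 and 0. The receptor gene Cxcr2 of circulating neutrophils had 1 count in CIH and 0 in normoxia. Anxa1 lost its call with TMM, at 1.51. The 5 genes whose log2 ratio lay nearest that of the specific stage (2.68), among 1011 with at least 500 counts and over the 2 libraries, were Srsf1 (2.58), Pglyrp1 (2.57), Malat1 (2.44), S100a9 (2.43) and S100a8 (2.41).

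Of 12 markers of dividing precursors, 8 were counted in CIH and 11 in normoxia, with 0.616% of counts in CIH and 0.658% in normoxia, a summed ratio of 0.937 (0.875 to 1.00 on reads) that was 0.537 with TMM. Of 11 assessed on reads, 1 was higher (H2afz, 2.37), 5 were lower and 5 neither, and with TMM none was higher and 8 were lower. The lower ones were Mki67 (58 counts in CIH and 2825 in normoxia), Pcna (2 and 319), and Birc5, Ccnb1 and Ccnb2, which were at 0 in CIH, and none of the 11 passed on estimated molecules. The monocyte list took 0.347% of counts in CIH and 0.450% in normoxia. Of its 8 assessed genes, 1 was higher, 5 were lower and 2 neither on reads, and none passed on estimated molecules. Over all genes, 16.1% were higher and 71.5% lower on reads. Red cell genes took 7.87% in CIH and 9.53% in normoxia. Of 7 assessed, none was higher, 3 were lower and 4 neither on reads. On estimated molecules 3 of the 7 were lower (Hbb-bt, Alas2 and Slc4a1), beside 0.380% over all genes. Genes of ganglion cells took 0.282% in CIH and 0.614% in normoxia. Most of these counts were Apoe, also a macrophage marker, with 249 of 409 in CIH and 12776 of 13335 in normoxia. The shares thus mostly follow Apoe. Of 5 assessed, Mbp, Isl1 and Sparc were higher on reads and Apoe and Col1a1 lower. Apoe alone was lower on estimated molecules. No T or NK cell gene of 7 was counted in either library, and 1 of 6 B cell genes was counted in CIH and 3 in normoxia. The B cell list took 0.0593% of counts in CIH and 0.0318% in normoxia. Vpreb3 had 86 counts in CIH and 80 in normoxia, a ratio of 16.1. Cd79a and Cd79b had 0 in CIH, and 452 and 159 in normoxia. None of these passed on estimated molecules. The part of neutrophils, of precursors or of blood in these levels was not tested.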

How the data were processed

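RNA was sequenced from 2 libraries, 1 per group. TRIzol extraction came first and the NEBNext Ultra II kit served for the libraries, per the labels' protocols, which mention no molecular identifiers. The submitters' processing notes name STAR 2.5.2b, featureCounts (Subread 1.5.2) and bcl2fastq 2.20. Build, annotation and strand setting: not given in the sources used here. Raw read counts for every gene, in whole numbers, were deposited by the authors, and so was TPM for the same genes. TPM was used only for levels between genes within a library. The columns carry codes, and CIH was assigned by its initial.

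The members and lists were chosen with earlier results of these data known. Of 20 lists, 1 symbol was not in the table. The names given are all members, up to 4 counted genes with most counts of each other list, the neighbours of members, and the 5 genes nearest the specific stage in ratio. Other list genes, Rps9, genes of the chromosome 9 stretch and the motif letters were chosen after values or sequences were seen. Counts were scaled by library totals, with TMM (edgeR 4.0.16, R 4.3.3), a housekeeping list and genes counted in both as alternatives, because TMM rests on genes that the shallow library happened to count. Ratios have exact conditional binomial intervals (Clopper-Pearson) and CPM exact Poisson intervals, in scipy 1.17.1, at 95%. A 0 was taken as up to 3 counts per library. Log2 ratios of lists used a prior count of 0.5. Intervals on molecules divided counts by the estimated reads per molecule, which assumes that genes seen in a single library with at least 10 counts mostly stem from 1 molecule. Reads are copies of fewer molecules, so intervals on reads are too narrow. No count model could be fitted with 1 library per group. Calls of the other lists on estimated molecules were added after their values on reads were seen. The size rule was tested on simulated data of independent reads. These leave out the copying of molecules, so that test does not show how the rule behaves with copied reads. In GENCODE M21 (GRCm38), 48970 of the 49315 identifiers were found, and the genes overlapping Mpo and Prtn3 had no counts. The genes without a symbol, 174 in all, held 0 counts in CIH and 500 in normoxia and were kept, since they have identifiers.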

Additional observations from a re-analysis of the deposited data

How the results depend on the processing

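No paired analysis was possible because each group held 1 library, and for the same reason no library could be left out. The 4 specific genes stayed above 2-fold under every scaling. With TMM the ratio of CIH over normoxia was 3.67 for the specific stage, 0.559 for the azurophil stage and at most 0.0309 for Mmp8 and Mmp9. Scaled by genes counted in both, it was 4.56 for the specific stage, 0.696 for the azurophil stage and at most 0.0384 for Mmp8 and Mmp9. With their 0 taken as 3 estimated molecules, the upper limit for Mmp8 and Mmp9 was 2.10. Over all genes, 1238 were higher with a minimum of 10 counts, 1326 with no minimum and 35 with intervals on molecules, against 679, and 16 were lower with intervals on molecules, against 3012. Without Ngp, the azurophil and specific stages held 0.915% and 99.1% of member counts in CIH, and in normoxia 5.10% and 86.5%, with 8.40% for Mmp8 and Mmp9. By TPM the normoxia shares were 1.25%, 96.4% and 2.34% for the azurophil stage, the specific stage and Mmp8 with Mmp9. Of 35 further values of single genes and lists, 21 moved and 14 did not. With 0 as 3 molecules, the upper limits of Mpo, Mmp8 and Mmp9 were 3.46, 5.61 and 3.36, so none shows a lower level. TMM turned Lyz2, Serpinb1a, Lrp1 and the median of the other specific granule genes to below normoxia. The estimated number of molecules in CIH limits all statements on genes at 0.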

Other observations

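Camp, Ngp and Ltf lie in that order within 1195389 bases of chromosome 9 (109847379 to 111042767 in GENCODE M21 on GRCm38). The stretch holds 28 other protein-coding genes, of which 1 was counted in CIH and 3 in normoxia. These were Cdc25a, with 18 counts in CIH and 0 in normoxia, and Map4, Ccdc12 and Nbeal2, with 0 in CIH and 657, 158 and 99 in normoxia. Prtn3 and Elane lie side by side on chromosome 10, with 3072 bases between them, and both were counted in CIH alone.

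Granule genes of other cell types were not counted, with 1 exception. Of 9 mast cell and basophil genes, none had a count in either library, including Mcpt8, the protein-coding neighbour of Ctsg on chromosome 14. Of 8 eosinophil genes in the table, the ribonuclease gene Ear2 alone was counted, with 115 counts in CIH and 48 in normoxia. These come to 793 CPM in CIH and 22.1 CPM in normoxia. At a ratio of 35.9 Ear2 was higher in CIH on reads. On molecules it did not pass, and its interval, from 0.885 up, includes 1. Ear2 belongs to a family of near-identical copies, so its counts are uncertain.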
